A study of Homo sapiens with 6 samples.

Results

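The proneural basic helix-loop-helix (bHLH) genes examined here are NEUROG1, NEUROG2, NEUROD1, NEUROD2, NEUROD4, NEUROD6, ATOH1 and BHLHE22. Their chromatin was described from every CTCF and H3K27ac peak that overlapped a gene interval or lay within 50 kb of it, and peaks at the gene were kept apart from flanking peaks. These 8 genes took in 44 of the 122371 listed peaks, 25 of them for CTCF and 19 for H3K27ac. The cells were neurons grown out of neural progenitors by a BrainPhys-based protocol. The progenitors came from the human induced pluripotent line KOLF2.1J, an established cell line, without any further genotype or treatment in the labels. Immunoprecipitated chromatin was sequenced (ChIP-seq) from 2 libraries with an antibody against CTCF, from 2 with an antibody against H3K27ac and from 2 inputs without antibody. CTCF is a zinc finger protein that sits at chromatin loop anchors and insulators, and H3K27ac is a histone mark of active promoters and enhancers. All values came from 1 list per antibody that joins both libraries of a single cell line, so there was no spread between replicates, no second condition and no test. The labels do not say whether those libraries came from separate cultures. The depth behind each peak is unknown, and a mark carried by few cells of the culture cannot be told apart from a weak mark in all of them.

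Proneural bHLH factors switch progenitors to a neuronal fate. They bind the E-box, a short motif, as dimers with the broadly expressed E proteins, and ID proteins block them by capturing those partners. The neurogenins NEUROG1 and NEUROG2 act early in dividing progenitors and turn on the NEUROD genes and the Notch ligand DLL1. The NEUROD factors act later: NEUROD1 in newly born neurons, NEUROD2 and NEUROD6 in maturing cortical excitatory neurons. ATOH1 specifies cerebellar granule cells and inner ear hair cells, and BHLHE22 is a repressor of the related OLIG branch that is used in young postmitotic neurons.

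The upstream sequences of 5 members are shown first, because they cover the genes with and without H3K27ac and differ in their E-boxes. Each is the 250 bases before the annotated start on the gene's own strand, from RefSeq for GRCh38.p14. They run 5′ to 3′ in lower case, with each E-box (CANNTG) in capitals. The pattern CANNTG matches at the same place on both strands, although a form such as CAGATG reads CATCTG on the other strand. NEUROG1 lies on the minus strand of chromosome 5 (chr5:135535965-135536214), NEUROG2 on the minus strand of chromosome 4 (chr4:112516181-112516430) and NEUROD1 on the minus strand of chromosome 2 (chr2:181680518-181680767). NEUROD2 lies on the minus strand of chromosome 17 (chr17:39607921-39608170) and NEUROD6 on the minus strand of chromosome 7 (chr7:31340727-31340976).
NEUROG1: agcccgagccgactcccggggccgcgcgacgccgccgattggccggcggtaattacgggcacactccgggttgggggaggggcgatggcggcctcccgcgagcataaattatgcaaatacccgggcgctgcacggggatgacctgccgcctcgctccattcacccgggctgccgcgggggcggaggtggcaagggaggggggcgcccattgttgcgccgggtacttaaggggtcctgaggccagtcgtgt
NEUROG2: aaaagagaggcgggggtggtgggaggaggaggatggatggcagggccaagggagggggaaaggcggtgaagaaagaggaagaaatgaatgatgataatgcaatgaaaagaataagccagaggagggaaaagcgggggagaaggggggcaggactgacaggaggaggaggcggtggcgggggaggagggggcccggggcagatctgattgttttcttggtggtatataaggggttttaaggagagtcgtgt
NEUROD1: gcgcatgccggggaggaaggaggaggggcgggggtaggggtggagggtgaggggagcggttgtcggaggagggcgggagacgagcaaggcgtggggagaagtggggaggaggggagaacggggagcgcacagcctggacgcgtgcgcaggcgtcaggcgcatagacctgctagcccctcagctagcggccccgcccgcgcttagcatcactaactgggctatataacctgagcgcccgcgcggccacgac
NEUROD2: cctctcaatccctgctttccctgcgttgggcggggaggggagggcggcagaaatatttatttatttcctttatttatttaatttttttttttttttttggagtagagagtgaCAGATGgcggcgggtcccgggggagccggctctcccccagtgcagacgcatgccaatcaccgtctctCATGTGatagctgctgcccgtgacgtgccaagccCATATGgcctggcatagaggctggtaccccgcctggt
NEUROD6: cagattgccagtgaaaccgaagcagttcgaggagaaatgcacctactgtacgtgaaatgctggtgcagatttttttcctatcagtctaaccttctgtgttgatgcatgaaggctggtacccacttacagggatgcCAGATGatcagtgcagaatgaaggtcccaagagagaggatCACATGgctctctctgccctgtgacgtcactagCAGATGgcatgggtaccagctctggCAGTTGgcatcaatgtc

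The upstream 250 bases of NEUROG1, NEUROG2 and NEUROD1, the matched members with an H3K27ac peak at the gene, held no E-box. Those of the 4 matched members without such a peak held 10, most of them in NEUROD6 and NEUROD2. Over all protein-coding genes with such a sequence the mean was 0.93 per gene. That mean covers genes with and without H3K27ac together, so it gives no background for the split among the members. The peak at NEUROD1 was marginal, with a q-value of 0.15. With q under 0.05 that gene joins the members without a peak. NEUROD6 had 4, with CAGATG at 115 and 42 bases before the start, CACATG at 75 and CAGTTG at 17. NEUROD2 had 3, of which CAGATG lay at 138 bases, the form CATGTG at 71 and the form CATATG at 37. NEUROD4 had 2, CAAGTG at 116 bases and, nearer to the start, CAGCTG at 46. ATOH1 had 1, CATATG at 249 bases. Among 15798 protein-coding genes with such a sequence, 57.8% held at least 1 CANNTG, 13.2% held CAGCTG and 9.86% held CAGATG on either strand. CAGCTG and CAGATG are forms of CANNTG and are counted in it. At least 1 CANNTG was held by 4 of the 7 matched members, near the share of 57.8%. A match of letters does not show binding, and its part in the H3K27ac values was not tested.

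Base composition also differed among the members. The upstream bases of NEUROG1 and NEUROD1 were 70.4% and 70.0% G and C, against a median of 62.0% over the 15798 genes. Those of NEUROD6 were lowest at 49.6%, with 4 CpG dinucleotides and an observed over expected CpG ratio of 0.262. NEUROD4 followed with a CpG ratio of 0.342, whereas ATOH1 had a ratio of 0.965 and NEUROG1 of 0.984 against a median of 0.735. NEUROD2 and NEUROG2 lay close together, at ratios of 0.66 and 0.70, although an H3K27ac peak lay 85 bp from the NEUROG2 sequence and the nearest lay 28.5 kb from that of NEUROD2. Across all genes with a sequence, the share whose upstream bases met an H3K27ac peak was 25.0% in the lowest quartile of G and C content, then 56.3%, 67.4% and 70.0%. The part of base composition in the members' values was not tested.

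**Figure D1:**
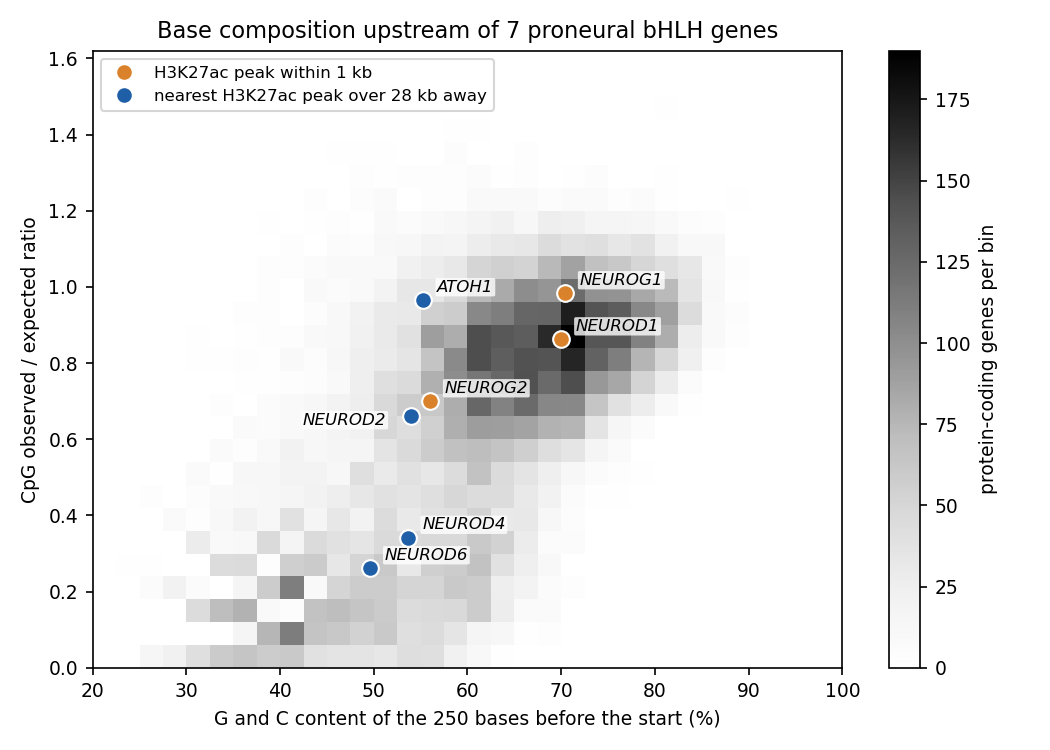
G and C content (x axis, %) against the observed over expected CpG ratio (y axis) of the 250 bases before the start of 7 members, on grey bins that count all protein-coding genes with a sequence. The 3 members with an H3K27ac peak within 1 kb of these bases have ratios from 0.70 to 0.984, and the 4 others range from 0.262 in NEUROD6 to 0.965 in ATOH1.

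H3K27ac was found at 4 of the 8 genes, NEUROG1, NEUROG2, NEUROD1 and BHLHE22, and its 6 peaks there were weak or moderate. Over all protein-coding genes 69% overlapped an H3K27ac peak, and 44.8% of those up to 10 kb long did. Of the members, 6 are that short, and 3 of these 6 (NEUROG1, NEUROG2 and BHLHE22) had a peak at the gene. The presence of a peak at the members was thus near the share among short genes. A peak at the gene above the median of the whole list, a fold enrichment of 4.74, was seen at 2 members, NEUROG1 and NEUROG2, against 62.6% of all protein-coding genes and 39.6% of the short ones.

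NEUROG2, on chromosome 4 from 112513516 to 112516180, had the highest value at any member. Its single peak ran from 112515331 to 112516095 with a fold enrichment of 6.86, a −log10 q of 12.2 and percentile 69.1 of the list. The summit lay 0.753 kb downstream of the start. The peak also overlapped NEUROG2-AS1, the antisense transcript whose interval crosses the 5′ part of the gene, and the list cannot assign it to either. There was no other H3K27ac peak within 50 kb, and the next were 109 kb away on the lower side and 120 kb away on the higher side, the latter at ZGRF1 and LARP7 with a fold enrichment of 45.0.

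NEUROG1, on chromosome 5 from 135534282 to 135535964, carried 2 peaks that together covered 71.3% of the gene, the largest covered share among the members. The wider spanned 135534483 to 135535473 at a fold enrichment of 4.98, and the other spanned 135535756 to 135536006 at 4.87. The second crossed the annotated start, and it made NEUROG1 the only one of the 7 members with an upstream sequence whose 250 bases met an H3K27ac peak, where 54.6% of genes did. Beyond the gene, 3 peaks lay between 44.1 and 45.3 kb downstream, outside any coding or long noncoding gene. The strongest of these, from 135489209 to 135489579, had a fold enrichment of 9.76, above both peaks at the gene.

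NEUROD1, on chromosome 2 from 181668295 to 181680517, had a single, marginal peak at the gene. Between 181678146 and 181678265, its fold enrichment was 2.25, at percentile 1.41 of the list. Its q-value of 0.15 was the only one above 0.05 among the 19 H3K27ac peaks, against 6.92% of the whole list. The acetylation around NEUROD1 was stronger upstream. Within 4 kb before the start, 3 peaks had higher fold enrichments the farther they lay, with 2.67 at a summit 0.574 kb upstream, 4.46 at 2.77 kb and 5.81 at 3.59 kb. The nearest other coding gene was CERKL, 23.9 to 26.8 kb from these 3 peaks.

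BHLHE22, on chromosome 8 from 64580365 to 64583627, carried 2 weak peaks. The fold enrichment was 3.41 for the peak between 64580506 and 64580629 and 3.65 for that between 64581364 and 64581791, at percentiles 20.4 and 26.6 of the list. Both also overlapped BHLHE22-AS1 and lay 0.494 and 1.35 kb from the coding gene LOC124900252. They were the only H3K27ac peaks within 50 kb, and the next lay 162 kb away at CYP7B1.

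Among the 13776 protein-coding genes with a peak, the highest fold enrichment of these members stood low. NEUROG2 was at percentile 19.9, NEUROG1 at 10.3, BHLHE22 at 3.55 and NEUROD1 at 0.145. Long genes hold more peaks and can reach higher values. Among the 2537 genes up to 10 kb long that had a peak, NEUROG2 was at percentile 24, NEUROG1 at 12.9 and BHLHE22 at 4.26.

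**Figure D2:**
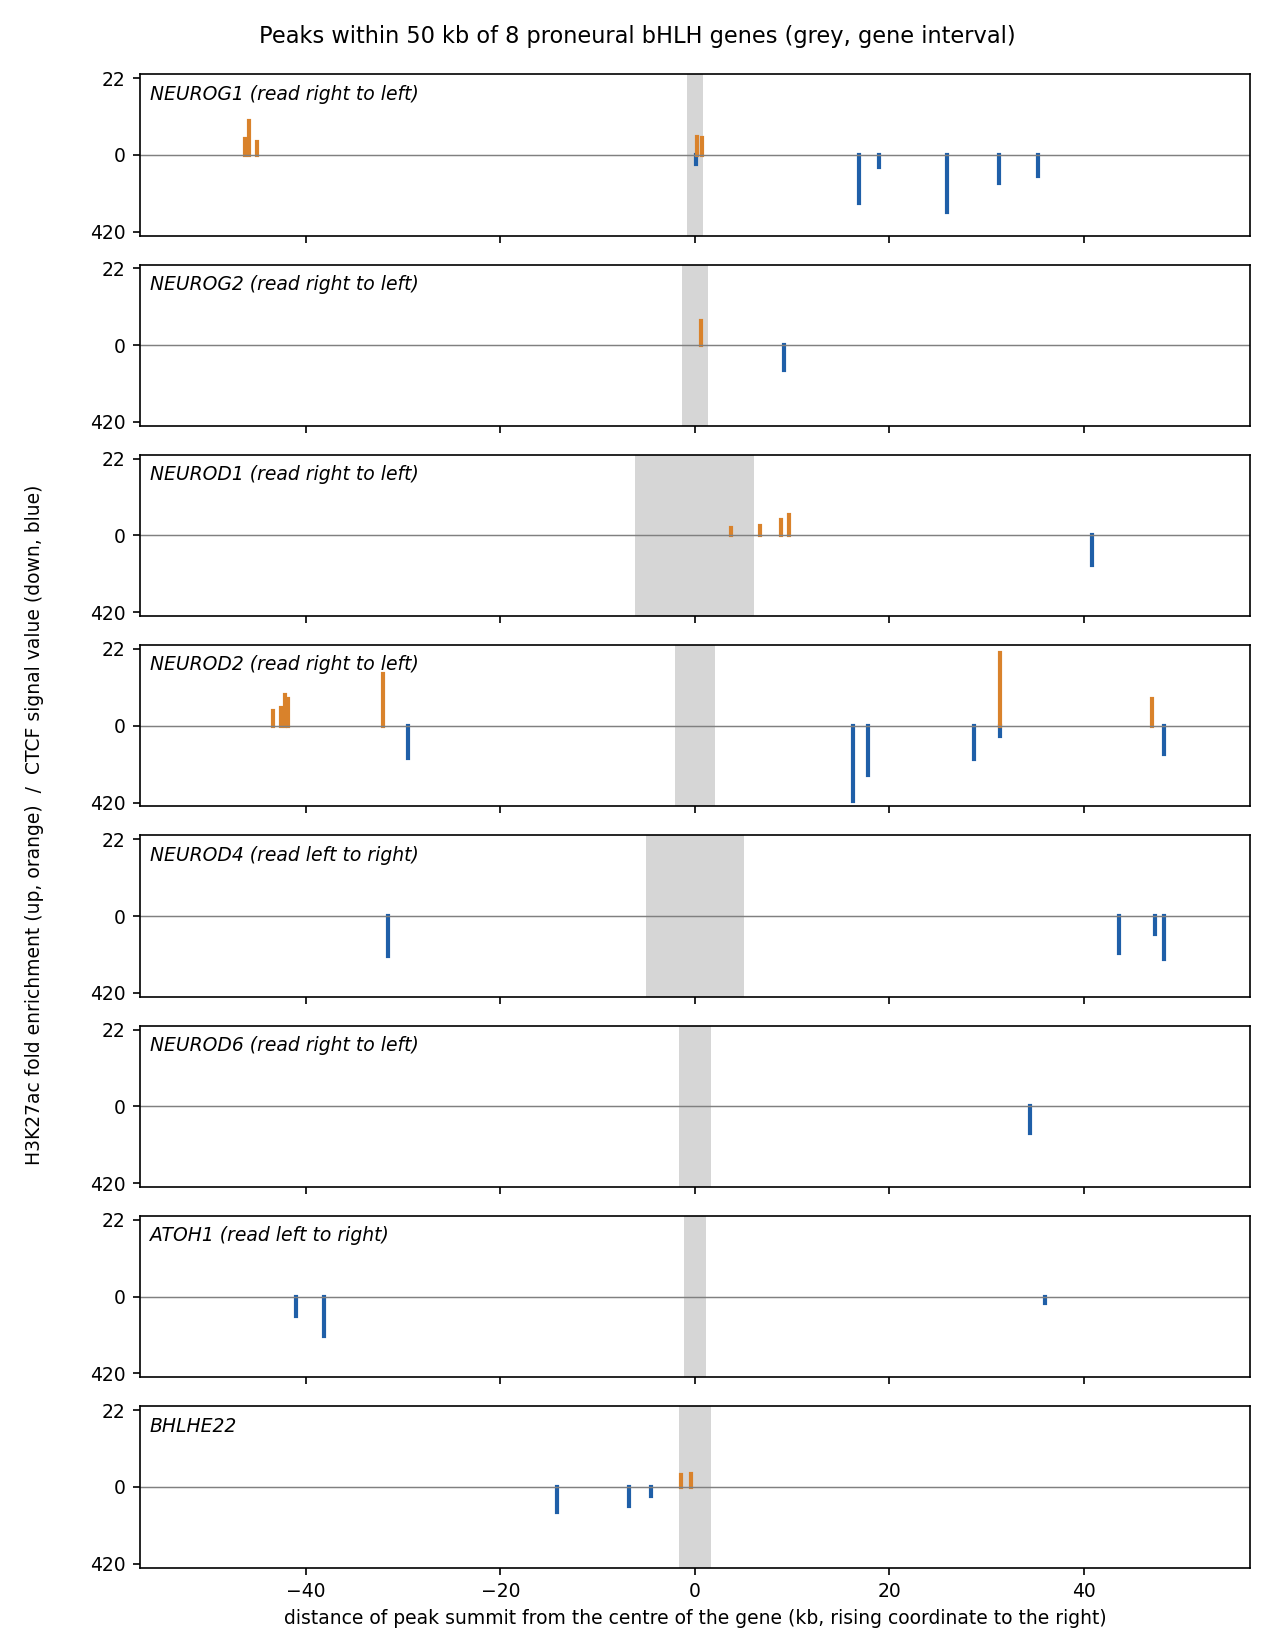
Peaks around each member against distance from the gene's centre (x axis, kb), with H3K27ac fold enrichment drawn upwards in orange (0 to 22) and CTCF signal value drawn downwards in blue (0 to 420), and the gene interval in grey. NEUROD4, NEUROD6 and ATOH1 show no H3K27ac, and all 8 windows hold at least 1 CTCF peak.

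NEUROD2, NEUROD4, NEUROD6 and ATOH1 had no H3K27ac peak at the gene. NEUROD4 lies on chromosome 12 from 55019974 to 55030017, NEUROD6 on chromosome 7 from 31337465 to 31340726 and ATOH1 on chromosome 4 from 93828753 to 93830964. For NEUROD4, NEUROD6 and ATOH1 the whole window was empty, which makes 3 of 8 members, against 11.8% of all protein-coding genes and 22.8% of those up to 10 kb long. NEUROD6 and ATOH1 are the 2 of the 6 short members in this state. The nearest peak was 95.5 kb from ATOH1 (fold enrichment 5.04), 117 kb from NEUROD6 in no coding or long noncoding gene (2.97) and 140 kb from NEUROD4 (12.5). An absent peak means only that none was listed, since signal below the caller's threshold is not in the list.

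NEUROD2, on chromosome 17 from 39603768 to 39607920, differed from these in its surroundings. It had 7 flanking H3K27ac peaks, more than any other member, and none nearer than 28.7 kb. The strongest upstream, between 39636654 and 39637692, overlapped the lipid transfer gene STARD3 and had a fold enrichment of 20.8. A weaker one of 7.76 also lay in STARD3. On the downstream side 4 peaks with values of 4.23 to 8.68 lay in CDK12, a ubiquitous transcription kinase gene. The strongest there, from 39573637 to 39574361 with 14.9, lay between CDK12 and NEUROD2, 6.08 kb from CDK12. Of the 7 peaks, 6 thus overlapped a neighbouring coding gene.

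Flanking H3K27ac was uneven over the set. The 13 flanking peaks belonged to 3 members, with 3 at NEUROG1, 3 at NEUROD1 and 7 at NEUROD2, while 81.6% of protein-coding genes had at least 1. The median was 0 per member and 3 per protein-coding gene. The farthest peak inside the limit lay 45.3 kb from NEUROG1 with a fold enrichment of 4.62, and the nearest outside lay 56.2 kb from NEUROG1 with 8.81.

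CTCF peaks lay near every member but at the gene in a single case. NEUROG1, 1 of the 6 short members, was the only member with a CTCF peak at the gene, against 55.6% of protein-coding genes and 28.6% of those up to 10 kb long. That peak, between 135534806 and 135535605, had a CTCF signal of 50.1 (percentile 28.9 among CTCF peaks), and it shared 668 bp with the wider H3K27ac peak. Its width of 800 bp is the recurrent one that 33.4% of CTCF peaks have, and without peaks of that width 0 members had CTCF at the gene. Of the 7 members with an upstream sequence, 0 had a CTCF peak over those 250 bases, where 20.8% of genes did.

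All 8 members had a flanking CTCF peak, as did 86.1% of protein-coding genes. The 24 flanking peaks ranged in signal value from 35.4 to 410 with a median of 155, and 20 of the 25 CTCF peaks exceeded the list median of 91.0. The highest value in the window exceeded that median at all 8 members, against 82% of protein-coding genes. The number of flanking peaks was 6 at NEUROD2, 5 at NEUROG1, 4 at NEUROD4, 3 at ATOH1, 3 at BHLHE22 and 1 each at NEUROG2, NEUROD1 and NEUROD6. The median was 3 per member and 2 per protein-coding gene.

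NEUROD2 had the strongest CTCF neighbour. The peak from 39621846 to 39622381, 13.9 kb upstream, had a signal of 410 (percentile 99.9 among CTCF peaks), and the highest value in the window was above that of 99.3% of genes with a CTCF peak in theirs. It was followed 15.4 kb upstream by a peak of 268, from 39623357 to 39623827. On the downstream side the gene had a single peak of 177, 27.1 kb away. No H3K27ac peak was listed between the nearest CTCF peaks on either side of NEUROD2, which enclose 45.2 kb, and all 7 flanking H3K27ac peaks lay outside that stretch.

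NEUROG1 had 5 CTCF peaks upstream, between 15.8 and 34.2 kb away, on the side of CXCL14, a chemokine gene. The strongest, from 135560750 to 135561224, had a signal of 311 (percentile 96.5), and the nearest, from 135551770 to 135552251, had 261. None lay downstream within 50 kb, where the nearest was 67.7 kb away with 297. No listed CTCF peak lay between NEUROG1 and its H3K27ac peaks 44.1 to 45.3 kb downstream, although the weak one inside the gene lies between them and the start.

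The remaining members had moderate CTCF values. NEUROD4 was flanked by a peak of 217 at 26.3 kb upstream, from 54993190 to 54993639, and by 3 downstream, of which the strongest had 235 and the nearest 200.6 at 38.4 kb. ATOH1 had a peak of 217 at 36.8 kb upstream, from 93791558 to 93792000, and a weak one of 35.4 at 34.5 kb downstream with the width of 800 bp. The single peaks of NEUROD1 (161 at 34.5 kb), NEUROD6 (146 at 32.6 kb) and NEUROG2 (138 at 7.56 kb) all lay upstream. BHLHE22 had 3 peaks on its lower-coordinate side, of 50.7, 103 and 137 at 2.44, 4.93 and 12.3 kb, and none within 50 kb on the other. The peaks of 50.7 and 103 overlapped BHLHE22-AS1 and the coding gene LOC124900252, and the former has the width of 800 bp.

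The flanking CTCF peaks of the members with a known strand lay more often before the gene than after it. Of 21 such peaks 16 were upstream, against 48.8% over protein-coding genes with a strand. Of these 16, NEUROG1 gave 5 and NEUROD2 another 5, and peaks clustered at 1 gene are not separate units. At NEUROD4 the count was reversed, with 3 downstream and 1 upstream. The nearest CTCF peak outside the gene was upstream for 6 of 7 members, against 49.3%. ATOH1 was the exception, by 2.26 kb, and its nearer downstream peak is the weak one of 800 bp. Without peaks of that width the downstream gap became 66.6 kb. This comparison was chosen after the positions had been seen. The gap upstream ranged from 7.56 kb at NEUROG2 to 36.8 kb at ATOH1, and the gap downstream from 27.1 kb at NEUROD2 to 144 kb at NEUROD6. The order of the long downstream gaps depended on weak peaks. Without peaks of 800 bp NEUROG2 had 165 kb, more than NEUROD6 at 144 kb. Among the 50% of CTCF peaks with the highest signal, ATOH1 had 296 kb and NEUROD1 201 kb.

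**Figure D3:**
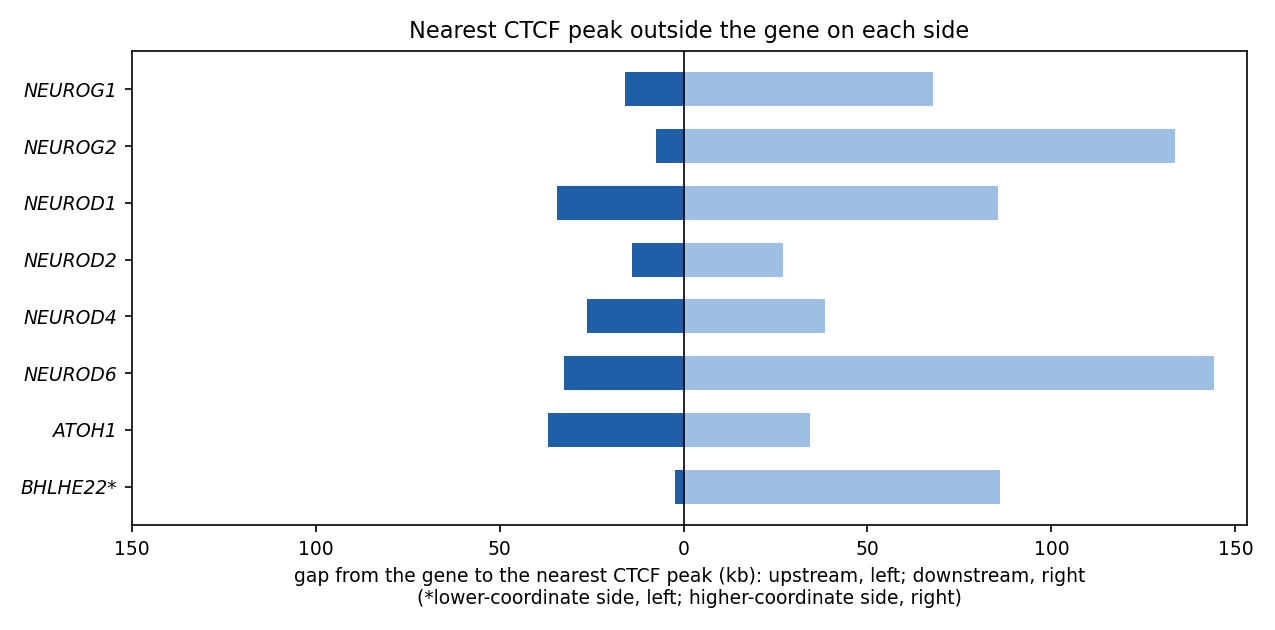
Gap in kb (x axis) from each member to the nearest CTCF peak outside the gene, upstream to the left and downstream to the right; for BHLHE22 the sides are lower and higher coordinate. The upstream bar is the shorter in 6 of the 7 members with a strand, and NEUROD6 and NEUROG2 have the longest downstream bars over all peaks, 144 and 134 kb; without peaks of 800 bp NEUROG2 is the longer at 165 kb.

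The stretch without CTCF around the 7 genes that hold no CTCF peak ranged from 45.2 kb at NEUROD2 to 180 kb at NEUROD6. Its median was 91.8 kb, close to the 93.4 kb over the 8750 protein-coding genes that hold no CTCF peak and have one on both sides, and 3 of the 7 members (NEUROG2, NEUROD1 and NEUROD6) exceeded the latter. NEUROD6, the member with the longest stretch over all CTCF peaks, had no H3K27ac peak anywhere within it. The stretches of NEUROD4 at 74.8 kb and of ATOH1 at 73.5 kb were likewise empty, whereas those of NEUROG2 and NEUROD1 held 4 H3K27ac peaks each and that of BHLHE22 held 2. A CTCF peak on both sides within 50 kb was found at NEUROD2, NEUROD4 and ATOH1, 3 of 8 members, against 49.8% of protein-coding genes.

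The marks met at 2 places in these windows. An H3K27ac peak was overlapped by 2 of the 25 CTCF peaks (8.0%), where 28.1% of the whole CTCF list did. These were the CTCF peak inside NEUROG1 and the one at STARD3 near NEUROD2. From the H3K27ac side the same 2 pairs made up 2 of 19 peaks (10.5%), where 16.2% of the whole list overlapped CTCF.

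The other genes of the pathway were taken from lists of 34 genes that hold no member. Of these, 24 had an H3K27ac peak at the gene, 70.6%, near the 69% of all protein-coding genes. The E proteins TCF3, TCF4 and TCF12, the dimer partners, all had one, and TCF12 was highest at 33.9. All 4 ID genes, the inhibitors, had one although each is under 5 kb long, and values ran from 5.64 in ID1 to 32.0 in ID4. Of the 7 HES and HEY genes, 6 had a peak, with HES4 highest at 30.7 and HEYL without. Of 8 genes known as targets of proneural factors, 7 had a peak, with the migration gene DCX highest at 21.2 and EOMES, a marker of intermediate progenitors, without.

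The other 12 neural bHLH genes were nearer to the members. A peak at the gene was found at 4 of them (33.3%, against 50% of the members). ATOH8 was highest at 21.8, but it is 37.4 kb long and had 21 peaks. With genes that lack a peak set to 0, the lists' median of the top value was 1.13 in the members, 0 in the other neural bHLH genes, 16.3 in the E proteins, 19.1 in the ID genes, 9.1 in the HES and HEY genes, 8.81 in the targets and 8.64 over all protein-coding genes. The E protein genes TCF4 and TCF12 are far longer than the members, at 414 and 373 kb, and had 31 and 22 peaks. The ID genes are as short as the members. The 8.64 covers genes of all lengths. Among those up to 10 kb long 44.8% had a peak, so their median on this scale is 0.

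**Figure D4:**
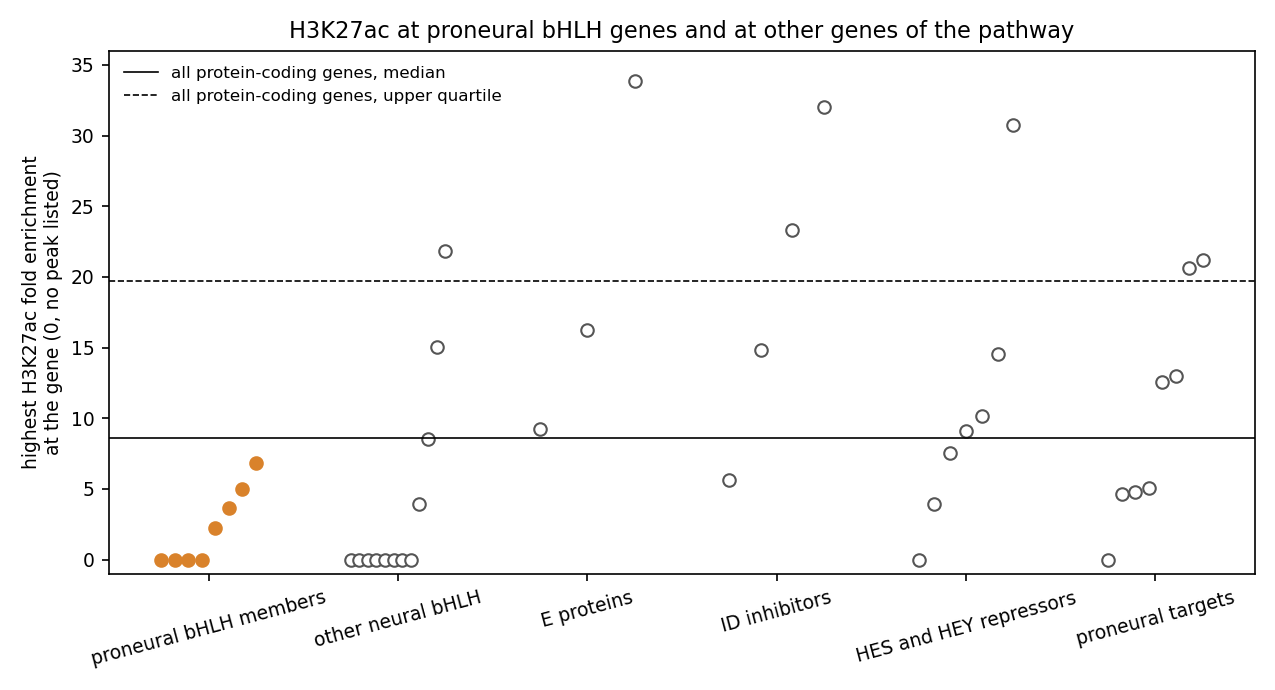
Highest H3K27ac fold enrichment at the gene (y axis, 0 where no peak is listed) for the 8 members in orange and for 5 lists of pathway genes as open circles, 1 point per gene. Lines mark the median (8.64) and the upper quartile (19.7) of all protein-coding genes, and all 8 members lie below the median. The lines are not matched for gene length, and only 44.8% of genes up to 10 kb long had a peak at all.

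Markers of cell types were read in the same H3K27ac list. All 8 neuron markers had an H3K27ac peak (highest, MAP2 at 35.9), as did all 6 neural progenitor markers (highest, MSI1 at 50.3). Inhibitory neuron markers had one at 4 of 4 genes (highest, GAD1 at 10.95). Excitatory markers had one at 3 of 4 (highest, CAMK2A at 13.7), without SLC17A7, the vesicular glutamate transporter of mature cortical neurons. The nearest peak lay 1.64 kb from SLC17A7. Astrocyte markers also had one at 3 of 4, without AQP4. S100B was highest at 20.02, whereas ALDH1L1 had 4.39 and GFAP 2.75, the latter at percentile 7.31 of the list. Oligodendrocyte markers had one at 3 of 4 as well (highest, MBP at 8.0), without MOG. Pluripotency markers had one at 2 of 4, DPPA4 at 7.63 and LIN28A at 4.83, without POU5F1 and NANOG, the defining pluripotency genes. Genes of other tissues likewise had one at 2 of 4, MYH7 at 20.4 and APOA1 at 4.62, without ALB and CD3E. Over all protein-coding genes 69% had a peak at the gene, so 3 of 4 in a list is near that share. The lists were not matched for gene length, and MAP2 is 310 kb long with 47 peaks. Peaks thus lay at markers of progenitors, neurons and both glial types, and also at some genes of the pluripotency and other-tissue lists. Such counts do not show which cell types the culture held. The part of progenitor, neuronal and glial cells in the values at NEUROG1 and NEUROG2 was not tested.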

How the data were processed

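ChIP-seq libraries of KOLF2.1J neurons (2 CTCF, 2 H3K27ac, 2 input) were read from 1 deposited peak list per antibody, which the labels give for both of its libraries. The submitters' processing notes name hg38 and cutadapt 1.16. The aligner, the peak caller and its settings are not given in the sources used here. The deposited CTCF list holds a peak signal value on an unstated scale. The deposited H3K27ac list holds a fold enrichment, judged from its values and layout. Both deposited lists hold −log10 q values and a score from the authors' pipeline, and the score was not used. The lists had 0 columns of single libraries, so no depth, replicate error or test was available, and no value was compared between lists.

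Peaks were joined by at least 1 shared bp with gene intervals of RefSeq GRCh38.p14, the same build, for 19974 protein-coding genes on 23 chromosomes (Python 3.11.15, pandas 2.3.3). Positions are 1-based. A percentile is the share of peaks or genes with a lower value. Upstream sequences came from the RefSeq promoter table, with the most upstream start kept per gene, and 7 of 8 members matched. The overlap functions were tested on simulated intervals. The members and lists were chosen with earlier results of these data known. The genes named were all 8 members, and in each list the gene with the highest value and the genes without a peak where at most 3 lacked one. ID1, LIN28A, APOA1, GFAP and ALDH1L1 were added after their values were seen. So were the lengths and peak numbers of TCF4, TCF12, ATOH8 and MAP2, and the gap at SLC17A7. Around members, the peaks named were those at the gene, the strongest flanking and the nearest CTCF peaks, with further flanking peaks and the nearest H3K27ac peaks added afterwards. Alternatives varied the definition of overlap, the window, the q-value, the signal and the CTCF width.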

Additional observations from a re-analysis of the deposited data

How the results depend on the processing

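No paired analysis was possible because each list joins both libraries of its antibody, and leaving out a library was not possible for the same reason. Of 27 alternatives for counts, 18 stayed within 1.5 times the count and 9 moved. A fall from 4 to 3 or from 3 to 2 members counts as staying. The q-value setting could not change the CTCF counts, since 0 of the 25 CTCF peaks had q above 0.05. In the 50% of peaks with the highest signal value, the members with H3K27ac at the gene fell from 4 to 2 (NEUROG1 and NEUROG2), those with CTCF at the gene from 1 to 0, and flanking H3K27ac peaks from 13 to 8. Without CTCF peaks of 800 bp, the members with CTCF at the gene were 0. With 20 kb on both sides there were 3 flanking H3K27ac peaks and 8 flanking CTCF peaks, and the highest CTCF value exceeded the list median at 4 of 8 members. With 100 kb there were 26 and 41 flanking peaks. These counts follow from shorter lists and other windows. With q-values under 0.05, NEUROD1 lost its peak at the gene, which left 3 members. NEUROD4 and NEUROD6 had no H3K27ac peak even within 100 kb. Of 56 alternatives for single values, 12 moved. Weak marks below the callers' thresholds cannot be seen in these lists.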
